A study of Mus musculus with 12 samples.

Results

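Fibroblasts are the matrix-producing cells of the ventricular wall, and the subject here is 10 marker genes of their resting and activated states. The genes were taken by symbol from the counts table, and all 10 of the 10 listed were found among its 55401 genes. The 6 resting markers are Pdgfra, Tcf21, Dpt, Pi16, Gsn and Scara5, and the 4 activated markers are Meox1, Fap, Cilp and Runx1. Messenger RNA was sequenced from the left ventricle of mice in 4 groups of 3 libraries. T497A TAC mice carried the Prkca T497A allele and underwent transverse aortic constriction (TAC), in which a tie sized by a 27-gauge needle narrows the aorta so that the left ventricle works against a raised pressure. WT TAC mice had wild-type Prkca and the same operation. T497A sham and WT sham mice had a sham operation. Prkca encodes protein kinase C alpha, and the allele replaces a threonine with alanine. All mice were operated on at 10 weeks of age and sampled 1 week later, at 11 weeks. Neither sex nor zygosity is stated in the labels. Nor do they tie each library to a separate animal, and the p-values therefore reflect the library-to-library spread alone, which may be technical.

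In the healthy heart, fibroblasts sit between the muscle cells and carry the platelet-derived growth factor receptor Pdgfra on their surface. After pressure overload they enter a proliferative and then a matrix-secreting state, in which transcription factors such as Meox1 and Runx1 are switched on and proteins such as Cilp and Fap appear. Markers of the resting state are of several kinds, since some label every fibroblast of the tissue and others a subset, such as the Pi16-positive adventitial fibroblasts.

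The libraries held 58932759 to 72594085 counts, and all 10 markers were among the 17699 genes kept after low counts were removed. Levels are normalised read counts (CPM, the counts of a gene scaled to a common library total), with the TMM factor of each library, which ran from 1.13 to 1.21 in WT TAC and from 0.91 to 0.988 in the other groups. Prkca stood at 43.7 to 50.3 CPM in T497A TAC, 49.2 to 51.0 in WT TAC, 31.1 to 35.7 in T497A sham and 42.2 to 47.4 in WT sham, and counts per gene cannot check a point mutation. The labels name the cell type as cardiomyocyte and the tissue as left ventricle. All 8 cardiomyocyte markers were detected, and so were fibroblast, endothelial and macrophage markers. The T497A sham libraries stood apart from the other 9 in sex-linked transcripts. Xist was at 160 to 215 CPM there, against at most 0.751 CPM elsewhere, and the Y-linked Ddx3y was at 0.0999 to 0.396 CPM there, against at least 73.6 CPM elsewhere. The sham groups differed at least 4-fold in 104 autosomal genes, of which 95 changed sign after TAC and 9 did not. None of the 10 markers was among those 104. Genotype names are therefore those of the labels, and T497A TAC is also set against WT sham for each marker and each fibroblast list. In comparisons that use T497A sham, surgery or genotype cannot be told apart from the difference in sex-linked transcripts.

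Compared per length of exon, the markers covered a wide range of levels. In WT sham, Gsn stood at 505 ± 31.1 RPKM (CPM divided by exon length in kilobases, mean ± SD, n = 3) and Dpt at 57.3 ± 6.7 RPKM. The other 4 resting markers lay between 3.48 RPKM for Tcf21 and 7.17 RPKM for Pi16. Meox1, at 6.18 ± 0.623 RPKM, and Cilp, at 4.21 ± 1.12 RPKM, were the activated markers with the higher level in WT sham. Fap, at 0.652 ± 0.0677 RPKM, and Runx1, at 0.232 ± 0.0335 RPKM, had the lowest levels of the 10 genes in that group. Even so, Runx1 had 105 to 1645 counts in each library. In WT TAC the order among activated markers put Cilp first, at 66.6 ± 24.9 RPKM, above Meox1 at 24.3 ± 10.5 RPKM.

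**Figure D1:**
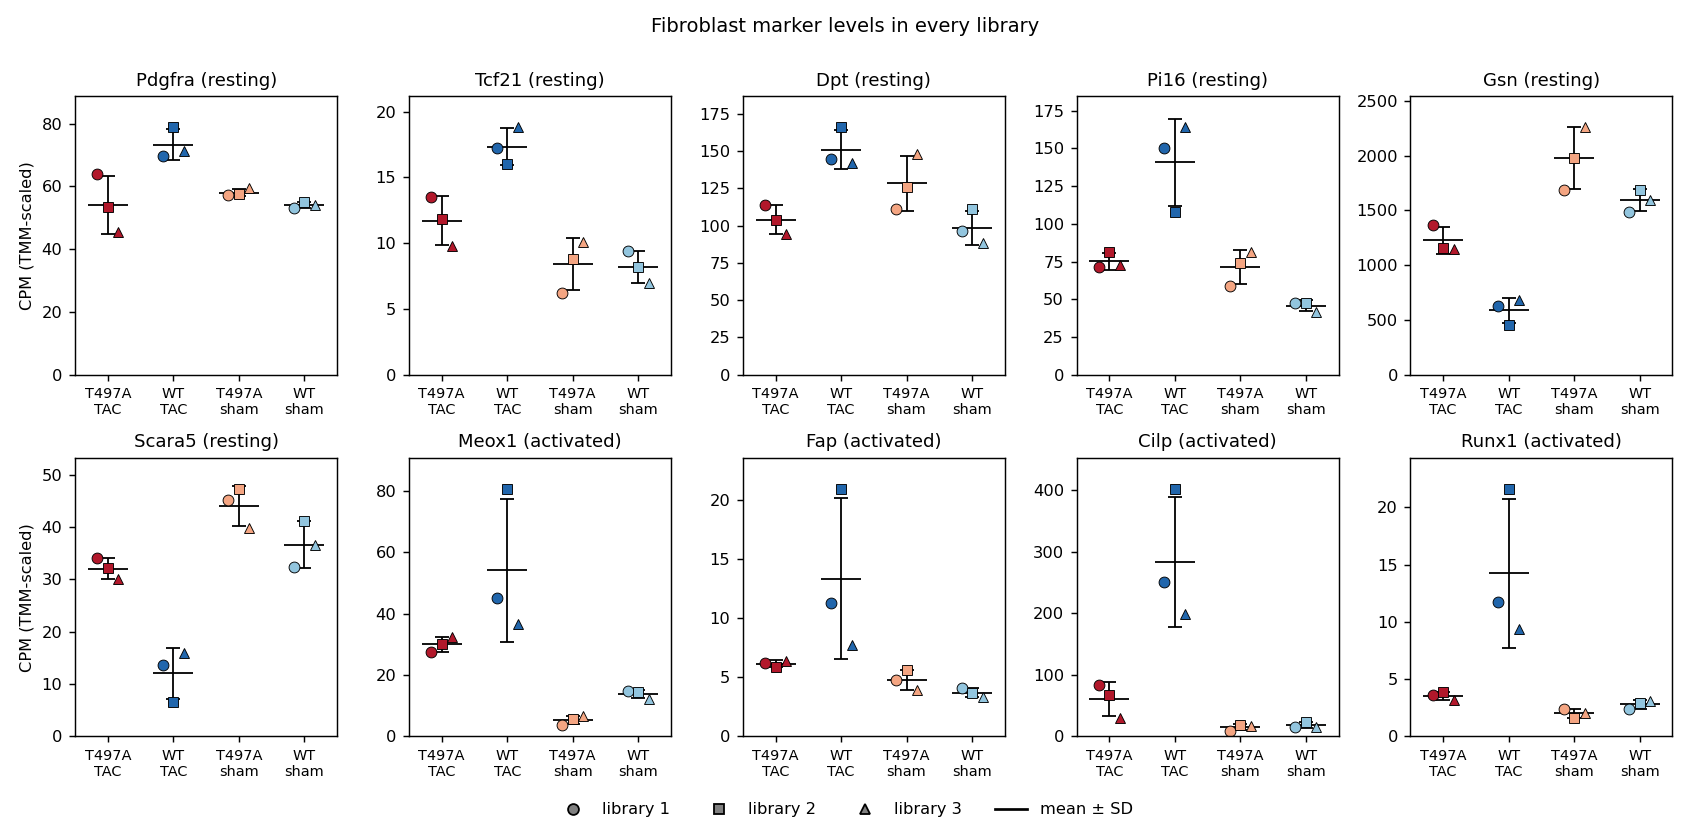
Levels of the 10 markers in CPM with TMM scaling (vertical axes, each from 0) in T497A TAC, WT TAC, T497A sham and WT sham (left to right). Each point is a library, shaped by its number, and lines with bars give the mean ± SD of 3 libraries. WT TAC stands highest for 8 markers and lowest for Gsn and Scara5, and the spread in WT TAC is wide for Meox1, Fap, Cilp and Runx1.

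All 4 activated markers rose with TAC under the WT label. The largest rise was that of Cilp, at 15.8-fold, followed by Runx1 at 5.1-fold, Meox1 at 3.93-fold and Fap at 3.61-fold. Cilp, which encodes the secreted cartilage intermediate layer protein, stood at 250, 402 and 198 CPM in WT TAC, against 15.5, 23.4 and 14.9 CPM in WT sham. Its log2 fold change was 3.98 ± 0.50 (standard error, adjusted p = 0.000194). Runx1, a transcription factor of the Runt family best known from blood formation, stood at 11.7, 21.6 and 9.38 CPM in WT TAC, against 2.34, 2.92 and 3.11 CPM in WT sham. The Runx1 groups were separated by a wide gap (log2 fold change 2.35 ± 0.28, adjusted p = 1.42e-05). Meox1, a homeodomain transcription factor of the developing somites, stood at 45.2, 80.7 and 36.7 CPM in WT TAC, against 14.7, 14.5 and 12.2 CPM in WT sham. Its lowest WT TAC library lay well above its highest WT sham library (log2 fold change 1.98 ± 0.29, adjusted p = 0.000345). Fap, a serine protease on the surface of activated fibroblasts, stood at 11.3, 20.9 and 7.75 CPM in WT TAC, against 4.09, 3.65 and 3.33 CPM in WT sham. Fap showed the weakest rise of the group, again without overlap between libraries (log2 fold change 1.85 ± 0.30, adjusted p = 0.000269).

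The library WT TAC 2 was the highest of its group for all 4 activated markers, and it was the lowest for Gsn, Scara5, Pi16 and Tcf21. Without it the log2 fold change was 3.65 for Cilp, 1.92 for Runx1, 1.57 for Meox1 and 1.36 for Fap, and each was still called. The coefficient of variation in WT TAC was 37.4 to 51.2% for the 4 activated markers. Among the resting markers it was 40.8% for Scara5, 20.7% for Pi16, 20.1% for Gsn and 6.65 to 8.67% for Pdgfra, Tcf21 and Dpt.

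The resting markers split under the WT label. Pdgfra, Tcf21, Dpt and Pi16 rose with TAC, while Gsn and Scara5 fell. Thus all 10 markers were called, 8 upward and 2 downward, in a comparison that called 49.9% of all genes (25.9% upward and 24% downward). Called means an adjusted p (Benjamini-Hochberg, all 17699 genes) below 0.05. Because of that high share, being called says little about a single marker, and the sizes carry the description. The median log2 fold change was 2.16 for the activated markers and 0.53 for the resting markers, against 0.03 for all genes. The markers were chosen with earlier results of these data known, so these medians only describe them.

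Pi16, a secreted peptidase inhibitor of adventitial fibroblasts, rose most among the resting markers. It stood at 150, 108 and 164 CPM in WT TAC, against 47.7, 47.7 and 41.5 CPM in WT sham (log2 fold change 1.62 ± 0.16, adjusted p = 6.81e-06). Tcf21, a basic helix-loop-helix factor needed to form the cardiac fibroblast lineage, stood at 17.2, 16 and 18.8 CPM in WT TAC, against 9.36, 8.18 and 7 CPM in WT sham. Every WT TAC library was above every WT sham library for Tcf21, with a log2 fold change of 1.08 ± 0.17 (adjusted p = 0.000109). Dpt, which encodes the small matrix protein dermatopontin, stood at 145, 166 and 142 CPM in WT TAC, against 96.5, 111 and 88.4 CPM in WT sham (log2 fold change 0.61 ± 0.12, adjusted p = 0.000605). Pdgfra stood at 69.6, 78.8 and 71.4 CPM in WT TAC, against 53.1, 54.9 and 54.0 CPM in WT sham. Its rise was the smallest of the 10 markers, 1.36-fold, although no library overlapped (log2 fold change 0.44 ± 0.09, adjusted p = 0.00125).

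Gsn, the actin-severing protein gelsolin, which muscle and other cells also make, stood at 625, 454 and 679 CPM in WT TAC, against 1490, 1690 and 1600 CPM in WT sham. It fell to 0.368 of the WT sham level (log2 fold change -1.44 ± 0.14, adjusted p = 3.61e-06). Scara5, a scavenger receptor that takes up ferritin, stood at 13.7, 6.51 and 15.9 CPM in WT TAC, against 32.3, 41.2 and 36.5 CPM in WT sham (log2 fold change -1.61 ± 0.27, adjusted p = 0.000682). For both genes the highest WT TAC library lay far under the lowest WT sham library. Cardiomyocyte markers moved the same way as Gsn and Scara5: all 8 fell, although Actn2 (-0.24) turned to 0.093 without TMM factors (adjusted p = 0.18), and their summed level was 26900 to 31600 CPM in WT TAC against 54600 to 60700 CPM in WT sham. Mitochondrially encoded genes took 9.67 to 14.7% of counts in WT TAC and 19.1 to 21% in WT sham. The 8 macrophage markers rose, with a summed level of 546 to 858 CPM in WT TAC against 264 to 314 CPM in WT sham, and Adgre1, Csf1r and the other defining markers were detected in every group. The part of these shifts in the marker results was not tested, and in bulk tissue fewer cells of a type and less RNA per cell cannot be told apart. With TMM factors left out, the all-gene median shifted by 0.33 on the log2 scale, and 8466 genes were called higher and 1891 lower, against 4576 and 4255 with them. All 10 markers kept their direction and call without TMM factors, with Gsn at -1.117 and Scara5 at -1.29.

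RefSeq holds windows of 250 bases before a transcription start (build GRCm38.p6) for 7 of the 10 markers, 10 windows in all. Shown are those of Cilp, the marker with the largest rise with TAC in WT, Runx1, with its distal and its proximal start, and Dpt, the resting marker outside Gsn whose window held a match. Pdgfra, Tcf21 and Pi16, which also rose, are not shown, and their windows held no match. Each runs 5′ to 3′ on the gene's own strand and ends at the base before the start. Capitals mark matches to 6-letter RUNX (TGTGGT), TEAD (GGAATG) and E-box (CAGCTG) motifs on either strand, so the RUNX letters can read ACCACA.
Cilp, chr9:65264930-65265179, plus strand: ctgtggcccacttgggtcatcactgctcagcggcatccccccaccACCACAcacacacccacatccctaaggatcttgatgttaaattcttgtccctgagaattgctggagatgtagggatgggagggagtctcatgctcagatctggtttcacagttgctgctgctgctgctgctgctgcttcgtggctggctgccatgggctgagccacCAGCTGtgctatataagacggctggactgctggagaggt
Runx1 distal, chr16:92826075-92826324, minus strand: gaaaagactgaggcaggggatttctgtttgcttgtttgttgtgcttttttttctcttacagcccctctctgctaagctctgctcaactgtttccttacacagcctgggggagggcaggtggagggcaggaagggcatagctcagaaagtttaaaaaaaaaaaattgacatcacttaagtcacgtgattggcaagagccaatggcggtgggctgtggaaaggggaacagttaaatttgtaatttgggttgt
Runx1 proximal, chr16:92697330-92697579, minus strand: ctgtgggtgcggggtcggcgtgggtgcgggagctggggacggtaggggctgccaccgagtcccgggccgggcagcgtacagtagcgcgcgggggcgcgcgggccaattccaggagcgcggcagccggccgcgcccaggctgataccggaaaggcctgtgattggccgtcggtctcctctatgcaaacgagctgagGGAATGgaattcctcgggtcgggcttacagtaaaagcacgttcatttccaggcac
Dpt, chr1:164796413-164796662, plus strand: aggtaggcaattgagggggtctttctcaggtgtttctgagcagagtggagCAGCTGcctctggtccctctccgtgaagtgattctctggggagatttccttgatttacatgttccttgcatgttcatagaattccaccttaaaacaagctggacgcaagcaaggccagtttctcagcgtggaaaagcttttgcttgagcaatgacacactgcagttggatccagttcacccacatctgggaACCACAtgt
The Cilp window held the RUNX letters 205 bases and the E-box letters 39 bases before the start. In the Dpt window the RUNX letters lay 9 bases and the E-box letters 200 bases before the start. The proximal Runx1 window held the TEAD letters 55 bases before the start, and the distal window held no match. RUNX letters occur in 14.0% of the 32851 windows of this length in the table, E-box letters in 13% and TEAD letters in 12.6%. The AP-1 letters TGANTCA (6.75% of windows), the homeodomain letters TAATTA (4.84%), the TATA letters TATAAA (12.4%) and a CArG box (1.47%) were also searched and found in no marker's window. Of the 10 windows 4 held no match of any kind. RUNX letters were also in 2 of the 3 windows of Gsn, which fell with TAC in WT. A match describes letters only and not a binding site.

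Under the T497A label fewer markers were called between TAC and sham, and the activated markers called higher were Meox1 and Cilp. The T497A sham and T497A TAC libraries also differed fully in Xist and Ddx3y. A response to TAC therefore cannot be told apart from that difference under this label. Meox1 stood at 27.5, 30 and 32.5 CPM in T497A TAC, against 3.76, 5.79 and 6.46 CPM in T497A sham. This was a 5.62-fold rise with narrow spread in T497A TAC (log2 fold change 2.49 ± 0.31, adjusted p = 0.000442). Its starting level in T497A sham was below that in WT sham, and against WT sham T497A TAC was 2.18-fold higher (adjusted p = 0.0401). Cilp stood at 84.0, 67.4 and 30.5 CPM in T497A TAC, against 8.77, 19 and 17.4 CPM in T497A sham. All 3 Cilp libraries after TAC lay above the sham libraries, the lowest being T497A TAC 3 (log2 fold change 2.01 ± 0.47, adjusted p = 0.0161). That call was lost without T497A TAC 1 (adjusted p = 0.0515) and without T497A TAC 2 (adjusted p = 0.0503). It was also lost in a fit of only the groups compared (adjusted p = 0.0641) and against WT sham (log2 1.76, adjusted p = 0.0503).

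Runx1 and Fap were not called under the T497A label. Runx1 stood at 3.61, 3.85 and 3.18 CPM in T497A TAC, against 2.40, 1.6 and 2.06 CPM in T497A sham. The groups did not overlap, yet the adjusted p was 0.0503 (log2 fold change 0.81 ± 0.28), and Runx1 passed the threshold in 9 of 23 alternatives. Without WT TAC 2 its adjusted p was 0.00279, and without WT TAC 3 it was 0.0173. Fap stood at 6.16, 5.83 and 6.4 CPM in T497A TAC, against 4.78, 5.59 and 3.89 CPM in T497A sham (log2 fold change 0.37 ± 0.29, adjusted p = 0.405). Its 95% interval of -0.27 to 1.00 on the log2 scale included no change. Against WT sham, Runx1 in T497A TAC was at 0.35 (adjusted p = 0.477) and Fap at 0.73 (adjusted p = 0.145).

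Among the resting markers Gsn alone was called with TAC in T497A. Gsn stood at 1370, 1160 and 1150 CPM in T497A TAC, against 1690, 1980 and 2260 CPM in T497A sham (log2 fold change -0.69 ± 0.14, adjusted p = 0.00369). Against WT sham it was not called (-0.38 ± 0.14, adjusted p = 0.113), although its libraries did not overlap those of T497A TAC. Scara5 stood at 34.0, 32.1 and 30.1 CPM in T497A TAC, against 45.1, 47.3 and 39.8 CPM in T497A sham. All 3 Scara5 libraries after TAC lay below the sham ones, but the difference was not called (log2 fold change -0.46 ± 0.26, adjusted p = 0.236). It passed without WT TAC 2 (adjusted p = 0.00181), in a fit of only the groups compared (0.00267) and with limma-voom (0.034). Against WT sham Scara5 was at -0.195 (adjusted p = 0.706). Tcf21 stood at 13.5, 11.8 and 9.80 CPM in T497A TAC, against 6.24, 8.82 and 10.1 CPM in T497A sham, with a slight overlap (log2 fold change 0.48 ± 0.17, adjusted p = 0.052). The call of Tcf21 was made in 8 of 23 alternatives, among them leaving out T497A TAC 3 (adjusted p = 0.0308) or T497A sham 3 (adjusted p = 0.023). Against WT sham Tcf21 was at 0.52 (adjusted p = 0.0687).

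The other resting markers overlapped between the T497A groups. Dpt stood at 114, 104 and 94.1 CPM in T497A TAC, against 111, 126 and 148 CPM in T497A sham (log2 fold change -0.30 ± 0.11, adjusted p = 0.0751). Without T497A sham 1 it was called lower (-0.40, adjusted p = 0.025), as it was with the DESeq2 test (0.0362) and limma-voom (0.0258). Against WT sham the Dpt difference was 0.08 (adjusted p = 0.745). Pdgfra stood at 63.8, 53.3 and 45.3 CPM in T497A TAC, against 57.2, 57.5 and 59.3 CPM in T497A sham. Its log2 fold change of -0.10 ± 0.09 had a 95% interval of -0.30 to 0.10 (adjusted p = 0.486), and only without T497A TAC 1 did it pass (-0.24, adjusted p = 0.047). Against WT sham Pdgfra was at 0.003 (adjusted p = 0.99). Pi16 stood at 71.1, 81.6 and 73 CPM in T497A TAC, against 58.8, 73.9 and 81.2 CPM in T497A sham (log2 fold change 0.08 ± 0.15, adjusted p = 0.761). Set against WT sham, Pi16 was 1.65-fold higher in T497A TAC (log2 0.72 ± 0.15, adjusted p = 0.0153). In all, 3 of the 10 markers were called with TAC in T497A, 2 upward and 1 downward, while the comparison called 24.4% of all genes (12.9% upward and 11.4% downward). T497A TAC against WT sham called 2 of the 10, Pi16 and Meox1, both higher, and 10% of all genes (6.12% higher and 3.9% lower). WT TAC against T497A sham called 9 of the 10, all except Dpt (log2 0.24, adjusted p = 0.102), and 50.2% of all genes (25.6% higher and 24.6% lower).

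Markers of other cell types also moved with TAC in T497A, where 12.9% of all genes were called higher and 11.4% lower. Against WT sham those shares were 6.12% and 3.9%. Of 6 adipocyte markers 0 rose and 4 fell (median -3.71), with a summed level of 0.615 to 1.29 CPM in T497A TAC, 3.2 to 13 CPM in T497A sham and 1.47 to 4.11 CPM in WT sham. Of 5 atrial markers tested 1 rose and 3 fell (median -3.565). The atrial myosin light chain Myl7 was at 9.47 to 12.8 CPM in T497A TAC, 63.6 to 261 CPM in T497A sham and 6.64 to 84.5 CPM in WT sham. Against WT sham 0 of the 6 adipocyte markers were called by edgeR (1, Adig, had an unadjusted p under 0.05), and of the atrial markers 1 was higher, the natriuretic peptide Nppa, and 0 lower. Of 8 cardiomyocyte markers 0 rose and 4 fell against T497A sham, and 0 were higher and 1 lower against WT sham. Of 8 macrophage markers 3 rose and 0 fell against T497A sham, and 1 was higher and 0 lower against WT sham. The part of these shifts in the marker results was not tested.

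After TAC the labels differed for every marker. Gsn (log2 1.07 ± 0.14, adjusted p = 0.000102) and Scara5 (1.42 ± 0.26, adjusted p = 0.00252) were higher in T497A TAC than in WT TAC, and the other 8 were lower. The comparison called 35.7% of all genes, 17.8% higher and 17.9% lower. Cilp averaged 60.6 ± 27.4 CPM in T497A TAC and 283 ± 106 CPM in WT TAC (SD, n = 3 each; log2 -2.23 ± 0.46, adjusted p = 0.00582). Runx1 averaged 3.55 ± 0.34 CPM in T497A TAC and 14.2 ± 6.49 CPM in WT TAC, 0.249 of the level (log2 -2.003 ± 0.27, adjusted p = 0.000107). Fap averaged 6.13 ± 0.283 CPM in T497A TAC and 13.3 ± 6.82 CPM in WT TAC (log2 -1.119 ± 0.29, adjusted p = 0.00966). Meox1 averaged 30 ± 2.53 CPM in T497A TAC and 54.2 ± 23.3 CPM in WT TAC (log2 -0.85 ± 0.28, adjusted p = 0.0405). The Meox1 libraries did not overlap, but 10 of 24 alternatives ended its call (adjusted p between 0.00508 and 0.122). Without WT TAC 2 the Meox1 difference was -0.45 (adjusted p = 0.091), without T497A TAC 1, 2 or 3 the adjusted p was 0.122, 0.105 and 0.0791, and without T497A sham 2 or WT sham 1, 2 or 3 it was 0.0548 to 0.0598.

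Of the resting markers lower in T497A TAC, Pi16 differed most, at 75.2 ± 5.57 CPM against 141 ± 29.1 CPM in WT TAC (log2 -0.90 ± 0.15, adjusted p = 0.000856). The differences were -0.57 ± 0.17 for Tcf21 (adjusted p = 0.0159), -0.54 ± 0.11 for Dpt (adjusted p = 0.00266) and -0.44 ± 0.09 for Pdgfra (adjusted p = 0.00225). Tcf21 lost its call without T497A TAC 2 (adjusted p = 0.052), T497A TAC 3 (0.071) or WT TAC 3 (0.0521). Neither Dpt nor Pdgfra did so under any alternative. In every one of the 10 markers the libraries of T497A TAC and WT TAC were separate. The share of all genes with such separation was not counted, and this comparison called 35.7% of all genes. The separation is therefore not read as particular to the markers. Cardiomyocyte markers summed to 47600 to 50800 CPM in T497A TAC and 26900 to 31600 CPM in WT TAC, with 8 of 8 called higher. Macrophage markers summed to 367 to 393 CPM in T497A TAC and 546 to 858 CPM in WT TAC, with 8 of 8 called lower. Their part in the marker differences was not tested. With no TMM factors the all-gene median shifted by -0.25, and 1458 genes were called higher and 6874 lower, against 3156 and 3165 with them. The 10 markers kept their directions and calls under that scaling.

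After sham, 2 of the 10 markers were called between the labels, against 5.79% of all genes (2.99% higher and 2.8% lower). Pi16 stood at 58.8, 73.9 and 81.2 CPM in T497A sham, against 47.7, 47.7 and 41.5 CPM in WT sham, so its groups did not overlap (log2 0.64 ± 0.15, adjusted p = 0.0333). Meox1 stood at 3.76, 5.79 and 6.46 CPM in T497A sham, against 14.7, 14.5 and 12.2 CPM in WT sham, 0.388 of the level (log2 -1.37 ± 0.30, adjusted p = 0.032). Both calls depended on single libraries. Pi16 was called in 4 of the 12 fits that left out 1 library (adjusted p of 0.00424 to 0.121) and Meox1 in 5 of 12 (0.00105 to 0.101). Leaving out any library of the sham groups ended the Meox1 call, and leaving out any of them except T497A sham 1 ended the Pi16 call. Among TAC libraries, T497A TAC 1 or 3 or WT TAC 1 did so for Pi16 (0.05 to 0.0538), and T497A TAC 2 for Meox1 (0.0564). Meox1 lies 6.04 Mb from Prkca on chromosome 11 (GRCm38, 101877510 to 101894374, minus strand). Of the 343 genes tested within 10 Mb of Prkca, 49 were called between the sham groups, or 14.3%. The sham groups also differed fully in Xist and Ddx3y, so nearness to Prkca cannot be told apart from that difference. The other 8 markers had adjusted p of 0.0765 for Dpt and 0.242 to 0.945 for the rest. Dpt was called with the DESeq2 test (0.023), with limma-voom (0.0333) and without T497A sham 1 (0.0334). Without TMM factors 730 genes were called higher and 375 lower, against 529 and 495 with them, with no change among the markers.

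**Figure D2:**
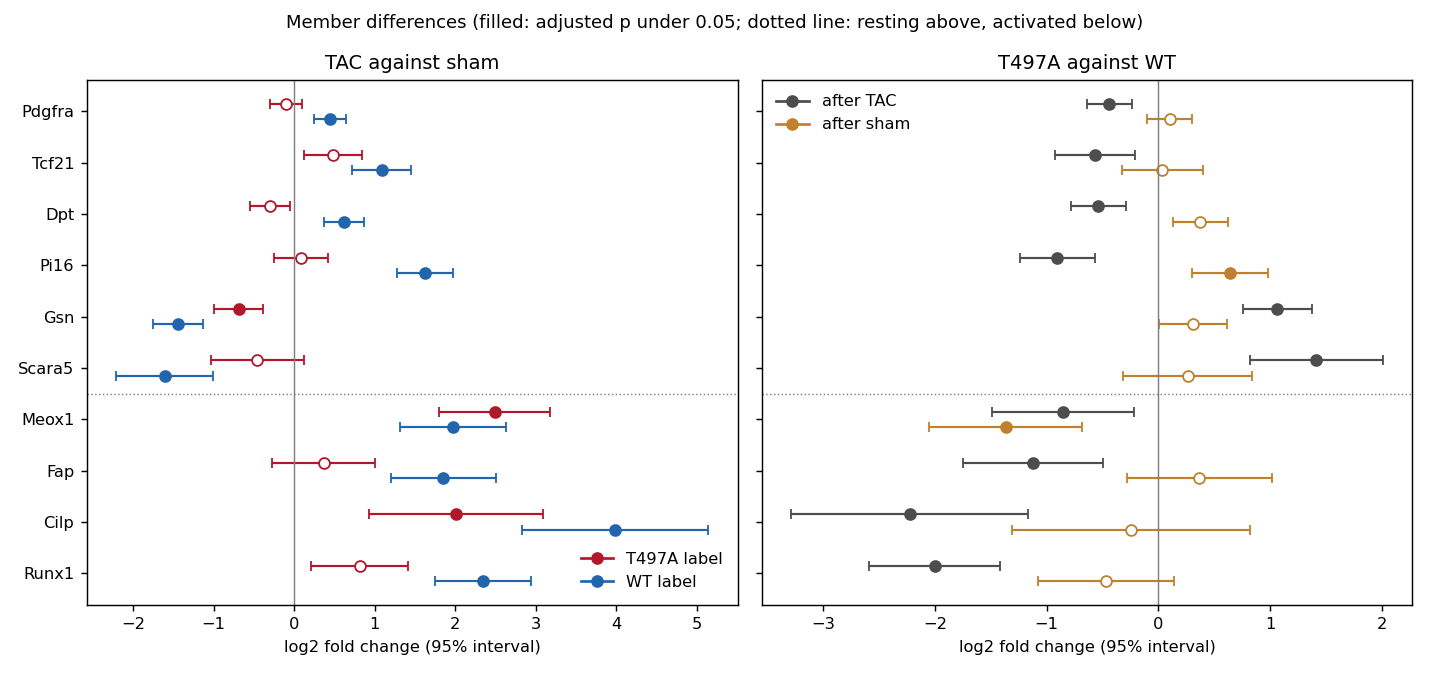
Log2 fold changes of the 10 markers (rows, resting above the dotted line and activated below it) with 95% intervals. The left panel gives TAC against sham under the T497A and the WT label, and the right panel gives T497A against WT after TAC and after sham. Filled points had an adjusted p under 0.05: 3 for TAC in T497A, all 10 for TAC in WT, all 10 after TAC and 2 after sham.

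The change with TAC itself differed between the labels for 7 of the 10 markers, by the interaction of genotype and surgery, which called 29.5% of all genes (15.3% higher and 14.2% lower). The response in T497A minus that in WT was -1.55 ± 0.22 for Pi16 (adjusted p = 0.000419), -1.54 ± 0.39 for Runx1 (0.00977), -1.49 ± 0.41 for Fap (0.0186), -0.92 ± 0.16 for Dpt (0.0012) and -0.54 ± 0.13 for Pdgfra (0.00735). It was 0.75 ± 0.20 for Gsn (0.013) and 1.15 ± 0.37 for Scara5 (0.0417). The Scara5 interaction was called in 9 of 22 alternatives (0.000398 to 0.0987), since every library left out ended it except WT TAC 2 and WT TAC 3. Cilp (-1.98 ± 0.65, adjusted p = 0.0508) and Tcf21 (-0.60 ± 0.24, adjusted p = 0.0712) were not called, and Cilp was called in 10 of 22 alternatives. Meox1 had the opposite sign from the other activated markers (0.51 ± 0.41, adjusted p = 0.397, 95% interval -0.41 to 1.44). Only without WT TAC 2 was the Meox1 interaction called (0.92, adjusted p = 0.0226). With no TMM factors the all-gene median shifted by -0.30, and 1175 genes were called higher and 5694 lower, against 2700 and 2518 with them. In that scaling Gsn (0.46, adjusted p = 0.0592) and Scara5 (0.87, adjusted p = 0.0699) were not called, while Tcf21 (-0.90) and Cilp (-2.28) were.

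By group mean, WT TAC was the highest group for Pdgfra, Tcf21, Dpt, Pi16 and all 4 activated markers. The next group was T497A TAC for Tcf21, Pi16, Meox1, Fap, Cilp and Runx1, and T497A sham for Pdgfra and Dpt. In that order the step from WT TAC to the next group was called for 7 of these 8 genes, all except Dpt (151 ± 13.1 CPM in WT TAC and 128 ± 18.8 CPM in T497A sham, adjusted p = 0.102). For Pdgfra and Dpt that step was against T497A sham, a comparison that called 50.2% of all genes. For the other genes it was against T497A TAC, which called 35.7%. The order was set from these same means, so a called first step is not a separate result. Meox1 was the marker with each step between neighbours called, at 54.2 CPM in WT TAC, 30 CPM in T497A TAC, 13.8 CPM in WT sham and 5.33 CPM in T497A sham. For Gsn and Scara5 the order was T497A sham, WT sham, T497A TAC and WT TAC, and the last step was the called step in both, although no library of Gsn overlapped between any of its 4 groups. The lower 3 groups of Pdgfra, Tcf21, Dpt, Fap, Cilp and Runx1 were not called apart between neighbours (adjusted p of 0.0503 to 0.99).

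Other fibroblast genes were read from lists by cell state. These lists, like the others used here, were chosen with earlier results of these data known. Their counts and medians are therefore descriptions only. Of all genes, 12.9% were called higher and 11.4% lower with TAC in T497A, and 25.9% and 24% in WT. Those shares were 6.12% and 3.9% for T497A TAC against WT sham. Between the labels they were 17.8% and 17.9% after TAC, and 2.99% and 2.8% after sham. Of 22 other resting fibroblast genes, 8 rose and 3 fell with TAC in T497A (median log2 fold change 0.10), and 13 rose and 4 fell with TAC in WT (median 0.55). Against WT sham 5 were higher and 1 lower in T497A TAC (median 0.23). Among the rises in T497A were Cd34, a surface sialomucin of stromal and endothelial cells (0.61 ± 0.07), and the basement membrane collagen Col15a1 (1.41 ± 0.14). Clec3b (-1.07 ± 0.16) and Fbln1 (-1.03 ± 0.17), which fell there, were already higher in T497A sham than in WT sham (0.97 and 0.74). Against WT sham, T497A TAC had Cd34 at 0.68 (adjusted p = 0.000118), Col15a1 at 0.93 (0.00217), Clec3b at -0.10 (0.766) and Fbln1 at -0.295 (0.309). In WT Cd34 rose (1.07 ± 0.07), as did Col15a1 (2.43 ± 0.14) and the surface antigen Thy1 (1.46 ± 0.11). Hsd11b1, which regenerates active glucocorticoid, fell (-1.89 ± 0.13), and so did the fibulin Efemp1 (-1.64 ± 0.23) and the dipeptidase Dpep1 (-0.86 ± 0.07). Lum, a collagen-binding proteoglycan, had a log2 fold change of 0.003 ± 0.197 in T497A (adjusted p = 0.993), was at 0.675 against WT sham (adjusted p = 0.0618), and rose in WT (2.09 ± 0.21). After TAC 4 of the 22 were higher and 11 lower in T497A, and 2 were higher and 1 lower after sham.

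Of 22 other activated fibroblast genes 9 rose and 0 fell with TAC in T497A (median 0.93), among them Ckap4 (0.86 ± 0.11), the collagen Col8a1 (1.66 ± 0.29) and the proteoglycan Aspn (1.10 ± 0.24). Against WT sham 6 of the 22 were higher and 0 lower in T497A TAC (median 1.01), with Ckap4 at 0.53, Col8a1 at 1.29, Aspn at 1.02 and Postn at 1.99 all called. In WT all 22 rose (median 3.47), with Ckap4 at 1.64 ± 0.12, the growth factor Mdk at 3.26 ± 0.30, Col8a1 at 3.85 ± 0.31 and Aspn at 2.95 ± 0.26. Postn, the matricellular periostin, was at 259, 290 and 117 CPM in T497A TAC, 1640, 2680 and 1280 CPM in WT TAC, 38.2, 63.1 and 62.6 CPM in T497A sham, and 55.3, 68.7 and 43.8 CPM in WT sham. As with Cilp, the lowest T497A TAC library for Postn was number 3 and the highest WT TAC library was number 2. After TAC 19 of the 22 were lower in T497A and 0 higher, and after sham 0 were called in either direction by edgeR, with 2 at an unadjusted p under 0.05 (Acta2 at 0.00708 and Ckap4 at 0.0131). The interaction called 18 lower and 0 higher. Because the list was chosen with earlier results of these data known, its counts only describe the listed genes. For comparison, the median of all genes was 0.003 with TAC in T497A and 0.03 with TAC in WT. The shares of all genes called higher were 12.9% with TAC in T497A, 25.9% in WT and 6.12% for T497A TAC against WT sham. Called lower were 17.9% in T497A TAC against WT TAC and 14.2% by the interaction.

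**Figure D3:**
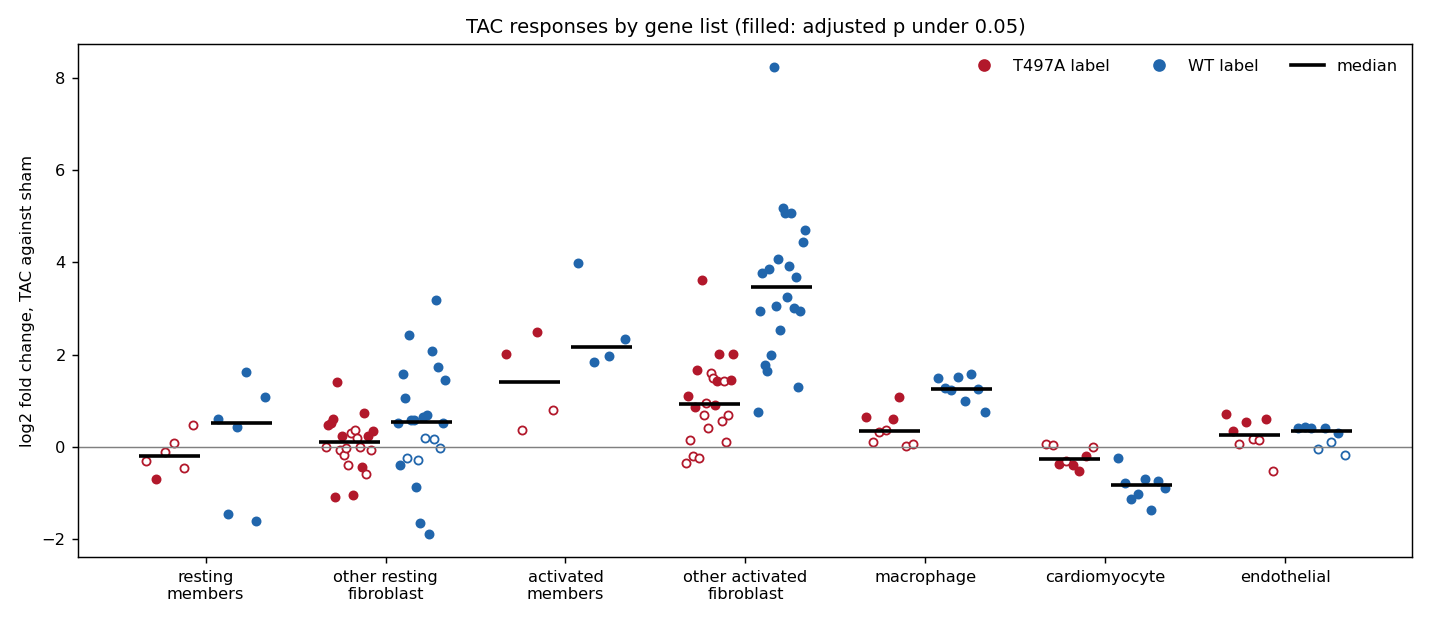
Log2 fold changes with TAC (vertical axis) for the genes of 7 lists, under the T497A label (left of each pair) and the WT label (right). Each point is a gene, filled where the adjusted p was under 0.05, and lines are list medians. The other activated fibroblast genes have a median of 0.93 in T497A and 3.47 in WT, while the 8 cardiomyocyte markers lie below 0 in WT (Actn2 not without TMM factors).

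Regulators and relatives of the markers moved in part. Among all genes, 12.9% were called higher and 11.4% lower with TAC in T497A, and 25.9% and 24% in WT. The shares were 6.12% and 3.9% for T497A TAC against WT sham. Between the labels they were 17.8% and 17.9% after TAC, and 2.99% and 2.8% after sham. Of 22 regulators of fibroblast state 6 rose and 2 fell with TAC in T497A (median 0.15), and 13 rose and 1 fell in WT (median 0.49). Against WT sham 4 were higher and 1 lower in T497A TAC (median 0.14), with Sox9 at 1.31 (adjusted p = 0.00274) and Scx at 0.98 (0.00178) called, and Tgfbr1 at 0.25 (0.251) and Tgfbr2 at 0.18 (0.202) not. Sox9, a matrix-directing transcription factor, rose in T497A (0.98 ± 0.21) and in WT (3.12 ± 0.22), and the tendon factor Scx rose in both (1.19 ± 0.15 in T497A and 1.79 ± 0.15 in WT). Of the receptors for transforming growth factor beta, Tgfbr1 was at 0.15 ± 0.13 (adjusted p = 0.428) and Tgfbr2 at 0.23 ± 0.09 (adjusted p = 0.0604) in T497A, while both rose in WT (0.94 ± 0.13 for Tgfbr1 and 0.84 ± 0.09 for Tgfbr2). Both interactions were called (-0.79 for Tgfbr1, adjusted p = 0.00586, and -0.60 for Tgfbr2, adjusted p = 0.002). After TAC 1 of these 22 was higher and 10 lower in T497A, and after sham 1 was lower, the endothelial and stromal factor Ets1 (-0.69 ± 0.09).

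Among 16 relatives, ligands and partners of the markers, 9 rose and 2 fell with TAC in T497A, and 11 rose and 1 fell in WT. Against WT sham 5 were higher and 0 lower in T497A TAC. All-gene shares called higher and lower were 12.9% and 11.4% with TAC in T497A and 25.9% and 24% in WT. For T497A TAC against WT sham they were 6.12% and 3.9%. Pdgfc, a ligand of Pdgfra, averaged 3.91 ± 0.352 CPM in T497A TAC, 9.33 ± 1.82 CPM in WT TAC, 3.88 ± 1.11 CPM in T497A sham and 2.54 ± 0.74 CPM in WT sham. It was not called with TAC in T497A (0.01 ± 0.23, adjusted p = 0.982) and rose in WT (1.88 ± 0.23, adjusted p = 1.27e-05), and the interaction was called (-1.87 ± 0.32). Against WT sham, T497A TAC had Pdgfc at 0.62 (adjusted p = 0.107) and Runx2 at 0.415 (0.385). Pdgfa, a further ligand of that receptor, was not called with TAC in T497A (-0.02, adjusted p = 0.906) or WT (0.05, adjusted p = 0.671). The related Pdgfb averaged 62 ± 7.05 CPM in T497A TAC, 60 ± 6.91 CPM in WT TAC, 46.3 ± 6.17 CPM in T497A sham and 45.7 ± 2.45 CPM in WT sham. Runx2, the paralog of Runx1 that directs bone formation, averaged 1.17 ± 0.181 CPM in T497A TAC and 3.67 ± 0.825 CPM in WT TAC, with no call for TAC in T497A (0.33 ± 0.28, adjusted p = 0.428) and a rise in WT (2.06 ± 0.28). Cbfb, the partner subunit of Runx proteins, rose in both (0.26 in T497A and 0.51 in WT). Meox2, the paralog of Meox1, rose with TAC in T497A (0.97 ± 0.10), where its sham level was lower than in WT sham (-0.80 ± 0.10, adjusted p = 0.000427), and was at 0.003 ± 0.102 with TAC in WT (adjusted p = 0.985). Against WT sham the rise of Meox2 in T497A TAC was not called (0.17, adjusted p = 0.327). It averaged 26.3 ± 1.89 CPM in T497A TAC, 23.5 ± 0.812 CPM in WT TAC, 13.4 ± 1.68 CPM in T497A sham and 23.4 ± 2.91 CPM in WT sham. Of the relatives of gelsolin, Capg rose in both (0.66 ± 0.13 in T497A and 1.38 ± 0.13 in WT), and Scin rose in both (1.46 ± 0.14 in T497A and 0.51 ± 0.14 in WT), whereas Gsn fell in both. Svil, a further member of the gelsolin family, rose in T497A (0.21 ± 0.07, adjusted p = 0.0399) and fell in WT (-0.28 ± 0.07, adjusted p = 0.00361), a direction that turned without TMM factors (0.055, adjusted p = 0.516). Against WT sham, T497A TAC had Capg at 0.54 (adjusted p = 0.0168) and Scin at 1.09 (0.000484), both called, Cbfb at 0.265 (0.0409), also called, and Svil at 0.13 (0.273), not called.

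Relative to Pdgfra in the same library, a marker's level is free of scaling between libraries. The log2 ratio of Cilp to Pdgfra averaged 0.06 ± 0.54 in T497A TAC, 1.89 ± 0.44 in WT TAC, -2.02 ± 0.60 in T497A sham and -1.62 ± 0.34 in WT sham (SD, n = 3). Cilp counts were thus near Pdgfra counts in T497A TAC and above them in WT TAC. The ratio of Dpt to Pdgfra varied little, with group means of 0.95 in T497A TAC, 1.04 in WT TAC, 1.13 in T497A sham and 0.86 in WT sham. Pdgfra itself rose with TAC in WT (log2 0.44), and that rise is taken off every ratio. Gsn fell against Pdgfra with TAC in WT by 1.90 on the log2 scale, and Scara5 by 2.14. Both falls were larger than on the CPM scale because Pdgfra rose, and they are not a separate result. The ratio of Meox1 to Pdgfra averaged -0.84 ± 0.37 in T497A TAC, -0.52 ± 0.51 in WT TAC, -3.47 ± 0.39 in T497A sham and -1.97 ± 0.15 in WT sham. On this scale the T497A TAC and WT TAC libraries of Meox1 overlapped, as did those of Fap, Tcf21, Dpt and Pi16, while those of Runx1, Cilp, Gsn and Scara5 did not.

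**Figure D4:**
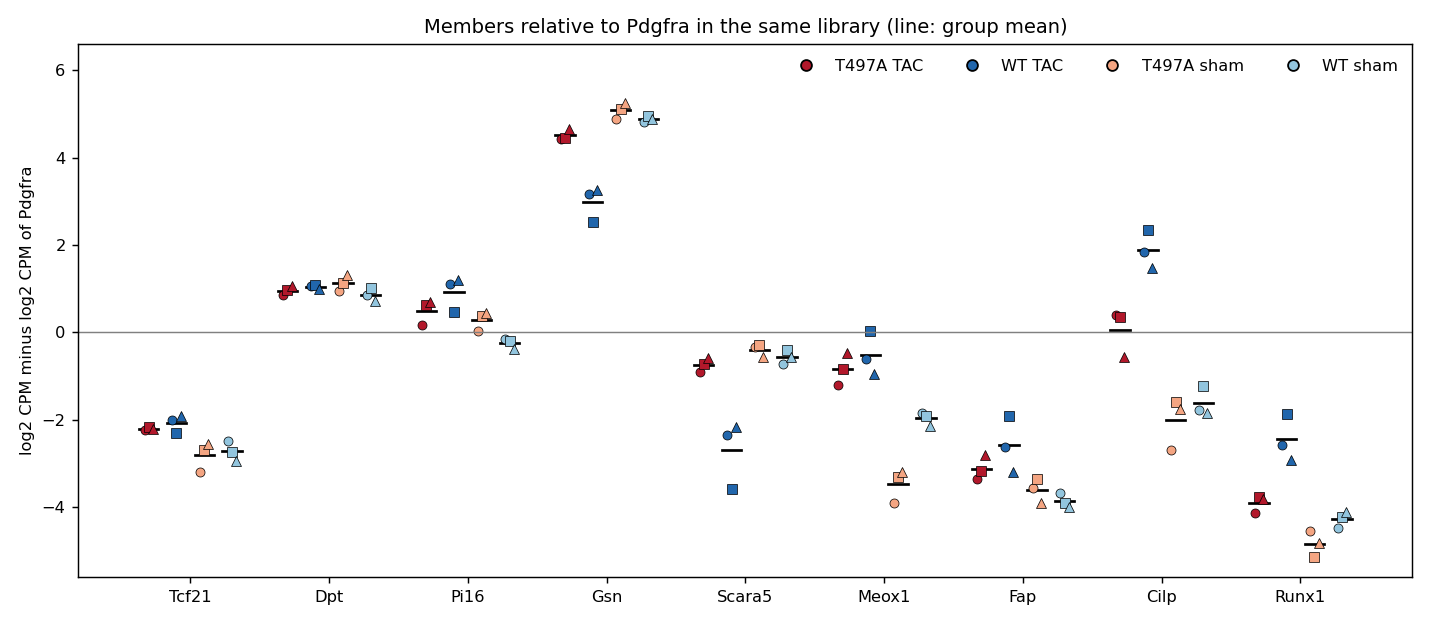
Log2 ratio of each of the 9 other markers to Pdgfra in the same library (vertical axis, difference of log2 CPM), in T497A TAC, WT TAC, T497A sham and WT sham from left to right within each gene. Points are libraries shaped by number and short lines are group means. Cilp lies at 0.06 in T497A TAC and 1.89 in WT TAC, and Gsn and Scara5 are lowest in WT TAC.

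Over the 12 libraries, which share their groups and their scaling, Gsn and Scara5 tracked each other closely (Pearson r of log2 CPM 0.96), and both ran opposite to Runx1 (r = -0.97 each). Cilp and Tcf21 had r = 0.94, and Pdgfra and Dpt r = 0.85. Meox1 was less alike to the resting markers Dpt (r = 0.28) and Pdgfra (r = 0.44). Over the 12328 genes averaging 1 CPM or more, the closest to Cilp was Postn (r = 0.992), the closest to Meox1 the aggrecanase Adamts4 (0.995), and the closest to Runx1 the leukocyte myosin Myo1f (0.988). Closest to Fap was Kctd11 (0.987), with the immune checkpoint receptor Havcr2 next (0.974). Gsn was most like the potassium channel subunit Kcnv2 (0.994) and the ATP synthase subunit Atp5j (0.989), and Scara5 was most like Asb10 (0.992) and the mitochondrial transfer RNA mt-Tw (0.99). Pdgfra was most like Lmo4 (0.962), Tcf21 like Aldh1a3 (0.974), Dpt like Ptgr1 (0.969) and Pi16 like Adamtsl2 (0.972). These likenesses describe 4 groups rather than 12 independent conditions.

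Exons of 3 markers share bases with genes on the other strand in GENCODE M21: 622 of 10024 exon bases of Pdgfra, 222 of 6364 of Pi16 and 106 of 12025 of Runx1. Another 30 bases of Pdgfra hold Mir7025 on the same strand. Whether counting used strand is not given in the sources used here, and a small share of the counts of these 3 genes is uncertain for that reason. The exons of the other 7 markers overlapped no annotated gene.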

How the data were processed

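Raw read counts per gene, in 12 columns, were deposited by the authors. The tools named in the submitters' processing notes are Trim Galore 0.6.4, STAR 2.7.3a, featureCounts of Subread 1.6.3 and limma 3.50.3. The notes name the builds mm10 and GRCh38 without a role. Per the labels, RNA came from RNeasy columns, libraries from the KAPA mRNA HyperPrep kit, and reads from a NextSeq2000. Groups came from the library names, and 2 T497A sham columns that lack the first letter of the genotype were matched by genotype, surgery and number.

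Symbols, coordinates and exon lengths came from GENCODE M21 on GRCm38 (54349 of 55401 IDs matched with version, 55141 without, 260 not at all). After filterByExpr and TMM scaling, 17699 genes entered edgeR 4.0.16 (quasi-likelihood F test, robust; R 4.3.3), with 1 mean per group over 12 libraries, and p-values were Benjamini-Hochberg adjusted over all genes tested. Errors of log2 fold changes are standard errors. Log2 CPM used a prior count of 2. An exact permutation test of 3 against 3 libraries cannot fall below 0.1. The test was checked on simulated counts in which few genes changed, in both directions. That check does not cover shifts as wide as those between these groups.

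The members and lists were chosen with earlier results of these data known. Named are all members, up to 4 called genes of smallest p per list and TAC comparison, growth factor ligands, receptors and paralogs of members, and for each member up to 3 genes with the highest r. Efemp1, Dpep1, Lum, Cbfb, Svil, Myl7 and Upk3b were named after their values were seen. Alternatives were DESeq2 1.42.0 size factors and test, no TMM factors, limma-voom (limma 3.58.1) with quality weights, no filter, 1 CPM in 6 libraries, robust estimation off, the replicate block, mitochondrial, haemoglobin and rRNA genes removed, autosomal protein-coding genes only, no T497A sham group, only the groups compared, each library left out, the control group swapped, and the ratio to Pdgfra.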

Additional observations from a re-analysis of the deposited data

Results flagged for a closer look

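In 7 of the 10 markers the change with TAC under the T497A label differed from that under the WT label by the test of the difference itself (edgeR interaction, adjusted p of 0.000419 to 0.0417). The same test called 29.5% of all genes. Scara5 was called in 9 of 22 alternatives, and with no filter 4 markers and 4735 genes were called. On the log2 scale, T497A response minus WT response, the values were -0.541 for Pdgfra, -0.915 for Dpt, -1.547 for Pi16, -1.485 for Fap, -1.538 for Runx1, 0.754 for Gsn and 1.15 for Scara5. The 4 groups enter each of these values, so the T497A sham group, which stands apart in sex-linked transcripts, does too.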

How the results depend on the processing

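Over the 50 marker comparisons, 1172 of 1180 alternative values kept their direction, and 1075 also kept their side of the threshold. These 1180 values leave out the ratio to Pdgfra. They reuse the same libraries and include fits that left out a library outside the comparison, so they are not independent checks. Reversals were near 0 and none was called: with TAC in T497A, Pdgfra was 0.014 without T497A TAC 3 and 0.003 against WT sham, Pi16 -0.043 without T497A sham 1 and Dpt 0.076 against WT sham; between sham groups, Cilp was 0.028 without T497A sham 1, and Tcf21 was -0.001, -0.119 and -0.065 without T497A sham 2, T497A sham 3 and WT sham 3. Leaving out libraries, the values that reversed ranged from -0.235 to 0.014 (Pdgfra), -0.043 to 0.182 (Pi16), -0.45 to 0.028 (Cilp) and -0.119 to 0.21 (Tcf21). With TAC in T497A, 3 markers and 4315 genes were called. The DESeq2 test called 6 markers and 5000 genes, and limma-voom called 7 markers and 5443 genes. The stricter filter called 5 markers and 4221 genes. With mitochondrial, haemoglobin and rRNA genes removed, 5 markers and 4322 genes were called. With autosomal protein-coding genes only, 5 markers and 4033 genes were called. Against WT sham, 2 markers and 1773 genes were called. Between sham groups the DESeq2 test called 1697 genes in place of 1024, and 3 markers in place of 2. With no filter 0 markers and 1117 genes were called there. With no filter the interaction called 4 markers in place of 7, losing Gsn, Scara5 and Fap, and 4735 genes in place of 5218. The cause of these shifts was not tested. On the ratio to Pdgfra, which has no test, the interaction was -0.041 for Tcf21 and -0.359 for Dpt, against -0.604 and -0.915 in CPM. For Cilp it was -1.437 against -1.98, and for Scara5 it was larger, at 1.795 against 1.15. The interaction of Pdgfra itself (-0.541 in CPM) is taken off each of these values, which moves them in a direction known beforehand.

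Leaving out each library in turn gave 10 to 10 markers called with TAC in WT (7922 to 8994 genes), 2 to 5 with TAC in T497A (2840 to 5152 genes, the lowest without T497A TAC 2), 0 to 2 between sham groups (505 to 1607 genes), 8 to 10 between TAC groups (5266 to 6491 genes) and 6 to 8 for the interaction (4394 to 5283 genes). Same-numbered libraries did not deviate together (18 pairs, r of -0.113 to 0.074). This cannot exclude a pairing by number, since differently numbered pairs were not set beside them. With the replicate block, 10 markers and 8579 genes were called with TAC in WT. Between sham groups that fit called 1 marker and 862 genes, and Pi16 (0.636) had an adjusted p of 0.0665. With 3 libraries per group, small differences such as those of Pdgfra are limited by the number of libraries, and the lowest count of a marker was 105 (Runx1).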

Other observations

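Several markers of the mesothelium, the cell layer over the heart that shares some genes with fibroblasts, stood low in WT TAC. Krt19 (0.183 CPM) and Krt8 (0.242 CPM) instead averaged more there than in T497A TAC (0.101 and 0.196 CPM), and neither difference was called. All of these markers had low levels, with no group mean above 3.2 CPM. Upk3b was named after its values were seen. The mean level of Upk3b was 1.54 ± 0.754 CPM in T497A TAC, 0.148 ± 0.0941 CPM in WT TAC, 3.11 ± 1.59 CPM in T497A sham and 3.2 ± 2.63 CPM in WT sham (SD, n = 3). Of 8 epicardial and mesothelial markers, 0 were called with TAC in T497A by edgeR (1, Krt19, at an unadjusted p under 0.05), 0 rose and 5 fell with TAC in WT, and 3 were higher and 0 lower in T497A TAC than in WT TAC. Their summed level was 0.996 to 1.54 CPM in WT TAC and ranged widely in the other groups, from 1.67 to 12.9 CPM in WT sham. Among all genes, 24% were called lower with TAC in WT, and 17.8% were called higher in T497A TAC than in WT TAC.

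Vessel markers were read beside shares of all genes called higher of 12.9% with TAC in T497A, 25.9% with TAC in WT and 6.12% for T497A TAC against WT sham. Of 8 endothelial markers 4 rose and 0 fell with TAC in T497A (median log2 fold change 0.26), and 5 rose and 0 fell in WT (median 0.35). Against WT sham 2 of these 8 were higher and 0 lower in T497A TAC. Of 8 mural markers, which label pericytes and smooth muscle, 3 rose and 0 fell in T497A, and 4 rose and 2 fell in WT. Against WT sham 0 of the 8 mural markers were called in T497A TAC by edgeR (5 had an unadjusted p under 0.05).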
